A study of Mus musculus with 6 samples.

Results

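Transcript levels of 9 genes of the interferon signalling chain were examined: the receptor chains Ifnar1, Ifnar2 and Ifngr1, the kinases Jak1 and Tyk2, the transcription factors Stat2, Irf9 and Irf7, and the inhibitor Usp18. They were taken by symbol from a table of 24419 genes, and 9 of 9 were found. RNA came from 6 libraries of neuron-enriched cells from the cortex bordering an infarct in male mice, on day 4 after a stroke made by blocking the middle cerebral artery for 60 minutes. The 3 libraries labelled control were from Padi4flox/flox mice, whose Padi4 alleles are flanked by loxP sites. The 3 libraries labelled cKO were from mice of genotype Slc17a7-cre; Slc32a1-cre; Padi4flox/flox, in which Cre is driven by transporter genes of glutamatergic and of GABAergic neurons. Both groups thus carried the floxed alleles and had the same stroke. Cells were sorted as Thy1-positive and negative for ACSA2, CD31, CD45 and O4. The preparation of all 6 libraries included pronase treatment for 75 minutes. The sources used here give neither the age of the mice nor whether each library came from a separate animal. The p-values therefore describe only how these libraries spread, which may be technical.

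Type I interferons bind a receptor made of IFNAR1 and IFNAR2, to which the kinases TYK2 and JAK1 are attached. The kinases phosphorylate STAT proteins, and a complex called ISGF3, which holds STAT2 and IRF9, then binds interferon-stimulated response elements in DNA. Interferon gamma uses another receptor, of IFNGR1 and IFNGR2. IRF7 amplifies the making of type I interferon, and USP18, itself induced by interferon, binds IFNAR2 and damps signalling. Neurons carry both receptors, and ischaemic brain is a setting in which type I interferon responses have been described.

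Levels are the deposited CPM values, which carry a further scaling per library (scaled CPM), and the difference between groups is that of log2(scaled CPM + 1), labelled cKO minus labelled control, with its standard error (SE) from limma. Library depth ran from 10094145 to 24056755 reads. A value of 3 reads, the detection floor, was 0.126 to 0.303 scaled CPM. Padi4, the targeted gene, had 0 reads in all 3 libraries labelled control and 0, 3 and 12 reads in replicates 1, 2 and 3 labelled cKO. This is the reverse of what the labels would lead one to expect, but the counts are too low to check the labels. Every direction below is that of the labels. The libraries labelled replicate 2 stood apart. They had 15261 (control) and 14042 (cKO) genes with a read, against 16818 to 17891 in the other 4. At the lowest depth of any library, 15038 and 13896 genes would be expected in them, against 16498 to 17557 in the other 4. Of the 14796 tested genes, 9.87% had 0 reads in cKO replicate 2, against 0.0811% to 4.54% in the other libraries. Values without 1 or both of these libraries are given beside the results that they moved most.

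Of the 9 genes, Usp18 was the gene whose libraries parted by label. It was lower in every library labelled cKO than in any labelled control, while for the receptor chains, kinases and transcription factors the groups overlapped. With the false discovery rate controlled over all 14796 genes, limma called 0 of the 9 (adjusted p = 0.9996 for each), where the share called among all tested genes was 0%. At an unadjusted p under 0.05, limma marked 1 of the 9 as lower, Usp18, and 0 as higher. The corresponding shares of all tested genes were 0.514% and 0.338%. On recovered reads, edgeR and DESeq2 also called 0 of the 9. At an unadjusted p under 0.05, edgeR marked 0 of the 9, against 0.216% of all tested genes as lower and 0.277% as higher. DESeq2 marked 1 of the 9, as lower, against 0.527% as lower and 0.656% as higher.

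**Figure D1:**
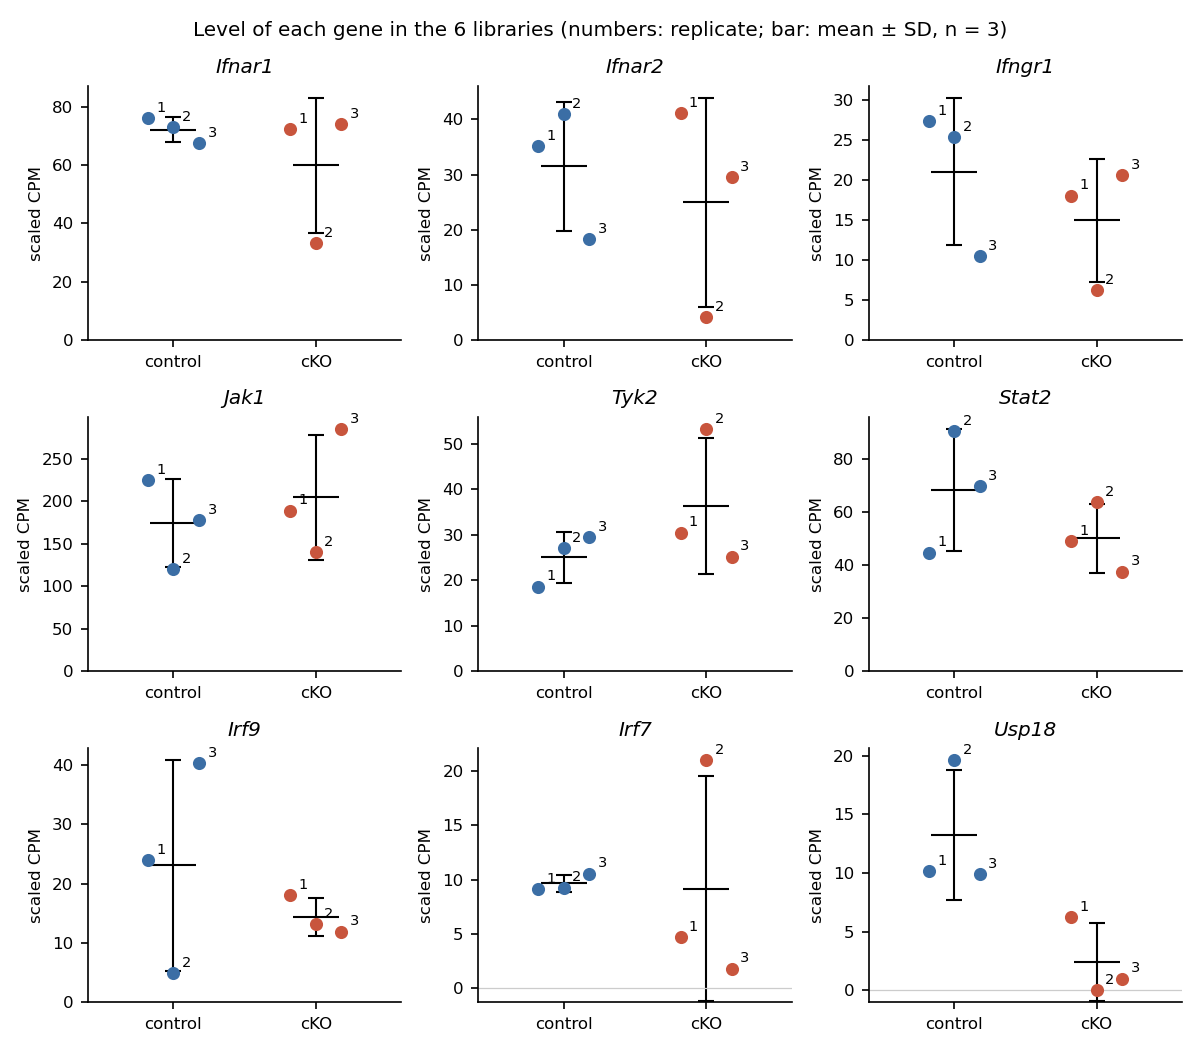
Scaled CPM (vertical axes, from 0 where the error bars allow) of the 9 genes in libraries labelled control (blue) and cKO (red); numbers beside points are replicates, the long bar is the mean and the whiskers are the SD of 3 libraries. The Usp18 points of the groups do not overlap, and cKO replicate 2 is the lowest point for Ifnar1, Ifnar2, Ifngr1 and Usp18 and the highest for Tyk2 and Irf7.

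The receptor chains were present in all 6 libraries. Ifnar1, the chain that docks TYK2, occupies chromosome 16, positions 91485238 to 91507441, plus strand (mm10). It was measured at 76.0, 72.9 and 67.4 scaled CPM in control replicates 1 to 3 and at 72.2, 33.3 and 74.1 in cKO replicates 1 to 3. Of these 6 values 5 lay close together, and cKO replicate 2 was the low one. The means were 72.1 ± 4.31 and 59.9 ± 23.0 (SD, n = 3 each), and the log2 difference was -0.35 (SE 0.37). Without cKO replicate 2 it was 0.022.

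Ifnar2, the chain that holds JAK1 and is bound by USP18, occupies positions 91372783 to 91405589 of the same chromosome, plus strand. Its values were 35.2, 40.9 and 18.4 in libraries labelled control and 41.1, 4.24 and 29.6 in those labelled cKO. The highest and the lowest library were both labelled cKO, and they differed 9.69-fold. Even the lowest value rested on 42 reads, with an exact Poisson 95% interval of 3.06 to 5.73 scaled CPM for counting error alone. The log2 difference was -0.71 (SE 0.73), and 0.22 without cKO replicate 2. An annotated gene, Gm21970, shares 9.46% of the exonic bases of Ifnar2 on the same strand. It is not listed in the table, and the sources used here do not say how shared reads were assigned.

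Ifngr1, the ligand-binding chain for interferon gamma, occupies chromosome 10, positions 19591949 to 19610229, plus strand. It was at 27.4, 25.4 and 10.6 in libraries labelled control and at 18.1, 6.26 and 20.7 in those labelled cKO. Control replicate 3 and cKO replicate 2 were the low libraries, and the groups overlapped (log2 difference -0.51, SE 0.60). Without cKO replicate 2 the difference was -0.014. For all 3 receptor chains, then, the lower mean of the group labelled cKO came with 1 low library. That library was the lowest of the 6 for 31.6% of all tested genes and the highest for 23.8%.

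Promoter windows from RefSeq (GRCm38.p6, 250 bases before to 50 after the start) were searched for the gamma-activated site core TTCNNNGAA, a palindrome that STAT dimers can bind. The windows shown are those of the members that held it. Of the 8 members with a window in the RefSeq table, 2 had this core, Ifnar1 and Ifnar2, against 8.30% of all 32851 windows. The window of Ifnar1 is chr16:91484965-91485264 and that of Ifnar2 chr16:91372533-91372832, both on the plus strand. The capitals mark the core, which begins 5 bases before the start in Ifnar1 and 214 bases before it in Ifnar2.
Ifnar1: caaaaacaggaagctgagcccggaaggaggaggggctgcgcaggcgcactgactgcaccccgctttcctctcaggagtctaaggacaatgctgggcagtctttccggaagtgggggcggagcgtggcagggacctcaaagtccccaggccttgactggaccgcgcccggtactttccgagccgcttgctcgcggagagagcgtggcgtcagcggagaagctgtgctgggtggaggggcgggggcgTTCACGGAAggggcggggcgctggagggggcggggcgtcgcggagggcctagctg
Ifnar2: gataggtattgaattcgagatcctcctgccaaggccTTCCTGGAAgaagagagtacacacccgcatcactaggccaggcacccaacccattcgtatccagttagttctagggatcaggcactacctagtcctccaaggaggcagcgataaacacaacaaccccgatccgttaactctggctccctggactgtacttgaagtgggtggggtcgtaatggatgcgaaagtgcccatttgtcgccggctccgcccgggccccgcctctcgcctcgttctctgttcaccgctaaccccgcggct
A match of these letters is a description of the window, and STAT binding was not measured.

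Both kinases had a higher mean in libraries labelled cKO, by less than the spread between libraries. Jak1, which serves both interferon receptors and many cytokine receptors, occupies chromosome 4, positions 101152367 to 101265282, minus strand. It was at 225, 121 and 178 in libraries labelled control and at 189, 140 and 285 in those labelled cKO. The libraries interleaved, with the lowest labelled control and the highest labelled cKO. The log2 difference was 0.22 (SE 0.36). It turned to -0.0263 without control replicate 2 and to -0.052 without cKO replicate 3.

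Tyk2, the kinase of the IFNAR1 chain, occupies chromosome 9, positions 21104068 to 21131243, minus strand. Its values were 18.6, 27.1 and 29.4 in libraries labelled control and 30.5, 53.2 and 25.2 in those labelled cKO. Here cKO replicate 2 was the highest library, in contrast to its place for the receptor chains. The log2 difference was 0.47 (SE 0.43), and 0.17 without that library. An antisense gene, 1700084C06Rik, covers 8.07% of the exonic bases of Tyk2, and the sources used here do not give the strand setting of the counting.

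The transcription factors overlapped between the groups. Stat2, the subunit of ISGF3 that carries its main activation domain, occupies chromosome 10, positions 128270559 to 128292849, plus strand. It was at 44.8, 90.6 and 70.0 in libraries labelled control and at 49.0, 63.7 and 37.6 in those labelled cKO. Control replicate 1 lay inside the range of the other group. The means were 68.5 ± 22.9 and 50.1 ± 13.1 (SD, n = 3 each), with a log2 difference of -0.42 (SE 0.38), and the sign was negative without each library in turn (-0.69 to -0.19).

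The core of the interferon-stimulated response element (GAAA, any 2 bases, then GAAA) was found in the window of Stat2 alone among the 8 members with a window, against 3.44% of all windows, when both strands were searched. The window is shown because ISGF3, of which STAT2 is a part, binds elements of this kind, though binding was not measured. No window of a member held both cores. It is chr10:128270248-128270547 on the plus strand (GRCm38.p6, RefSeq). The core lies on the minus strand and begins 222 bases before the start, so that the capitals, which mark it, read as its reverse complement.
Stat2: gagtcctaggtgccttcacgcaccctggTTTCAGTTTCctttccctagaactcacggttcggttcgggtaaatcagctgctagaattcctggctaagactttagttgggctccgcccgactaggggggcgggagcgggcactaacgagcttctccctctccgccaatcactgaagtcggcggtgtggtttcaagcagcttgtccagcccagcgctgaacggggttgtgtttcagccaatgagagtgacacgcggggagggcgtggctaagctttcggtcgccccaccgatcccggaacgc
The windows of Ifngr1, Jak1, Tyk2, Irf9 and Irf7 held neither core, which says only that these letters are not in them, and Usp18 had no window in the table.

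Irf9, which gives ISGF3 its DNA contact, occupies chromosome 14, positions 55603571 to 55610030, plus strand. Its values were 24.0, 4.93 and 40.3 in libraries labelled control and 18.1, 13.1 and 11.9 in those labelled cKO. The highest and the lowest library were both labelled control, 8.18-fold apart, and the 3 libraries labelled cKO lay between them. The log2 difference was -0.27 (SE 0.69). It was 0.32 without control replicate 3 and -1.08 without control replicate 2. Rnf31, on the same strand, shares 2.28% of its exonic bases.

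Irf7, the factor that raises type I interferon genes, occupies chromosome 7, positions 141262706 to 141266481, minus strand. It was at 9.13, 9.27 and 10.6 in libraries labelled control and at 4.70, 21.0 and 1.81 in those labelled cKO. The control libraries were nearly alike (9.65 ± 0.788, SD, n = 3), whereas those labelled cKO spread 11.6-fold (9.17 ± 10.4, SD, n = 3). Replicates 1 and 3 labelled cKO lay below every control, and replicate 2 lay above every control on 208 reads. The log2 difference was -0.59 (SE 0.76), and it was 0.076 without cKO replicate 3. Without cKO replicate 2 it was -1.41, with an unadjusted limma p of 0.0348 and an adjusted p of 0.9999. An opposite-strand gene at a higher level in all 6 libraries, Phrf1, shares 1.19% of its exonic bases.

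Usp18, the ubiquitin-specific protease that removes ISG15 and blocks signalling at IFNAR2, occupies chromosome 6, positions 121245906 to 121270917, plus strand. It was at 10.1, 19.6 and 9.95 scaled CPM in libraries labelled control, on 110, 267 and 179 reads. In those labelled cKO it was at 6.24, 0 and 1.01, on 130, 0 and 24 reads. The 0 in cKO replicate 2 allows a level of up to 0.303 scaled CPM at the floor of 3 reads, and up to 0.373 by the exact Poisson 95% interval. All 3 values labelled cKO lay below all 3 controls, which 2.26% of all tested genes also showed in that direction. The means were 13.2 ± 5.54 and 2.42 ± 3.35 (SD, n = 3 each), a ratio of 5.48. The log2 difference was -2.48 (SE 0.80, 95% interval -4.25 to -0.71), with an unadjusted limma p of 0.0108 and an adjusted p of 0.9996. An exact two-sided permutation test of the 6 values gave p = 0.1, the smallest that 3 against 3 allows. Groups that do not overlap always give this value, so the test adds nothing to the non-overlap.

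Because the groups did not overlap, leaving out libraries could not turn the sign of the Usp18 difference, only change its size. Without each library in turn the log2 difference ran from -3.26 to -1.83. It was -1.83 without cKO replicate 2, where the gene had no reads, and -1.53 without both replicate 2 libraries. Limma gave an adjusted p of 0.9999 in both cases. The size depended on the pseudocount, at -3.83 with 0.1 and -1.35 with 5. The gap between the groups was narrow on 1 side, since the highest library labelled cKO was at 6.24 and the lowest control at 9.95. A long noncoding gene on the opposite strand, Gm44148, covers 4.44% of the exonic bases of Usp18.

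**Figure D2:**
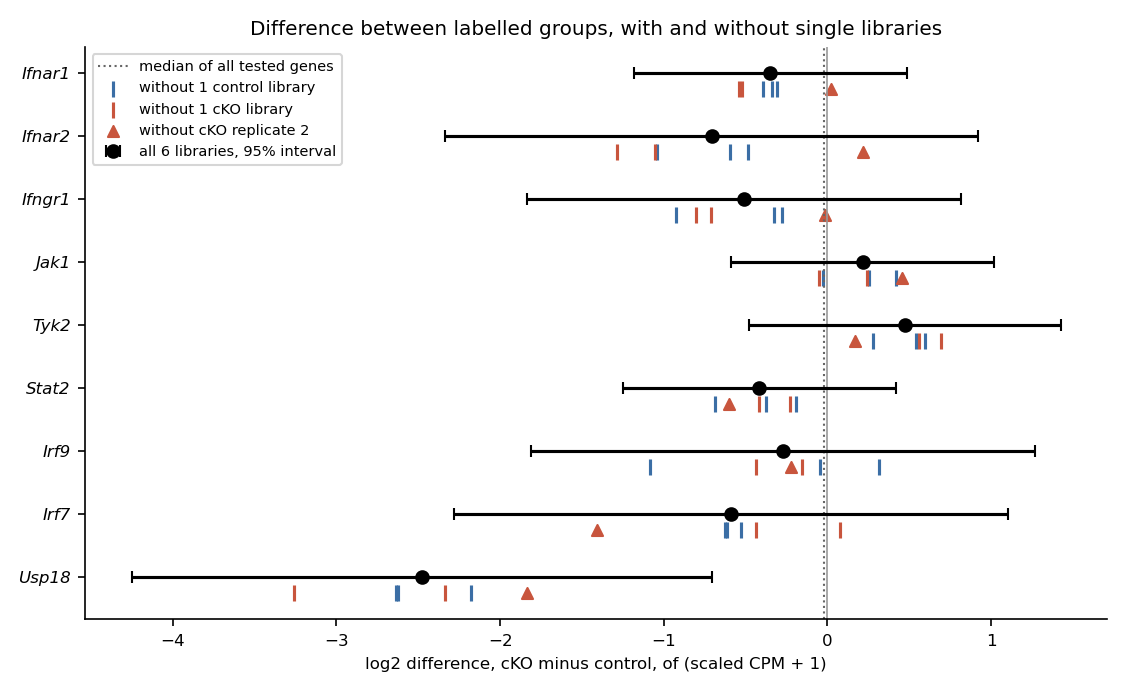
Log2 difference of (scaled CPM + 1), labelled cKO minus labelled control (horizontal axis), for each gene: black points with 95% intervals are from all 6 libraries, ticks leave out 1 library, triangles leave out cKO replicate 2, and the dotted line is the median of all tested genes at -0.02. The interval of Usp18 is the one that does not reach 0 (unadjusted), and the triangles of Ifnar1, Ifnar2 and Ifngr1 sit at 0.022, 0.22 and -0.014.

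Across the 9 genes, 7 had a lower and 2 a higher fitted mean in libraries labelled cKO, with a median log2 difference of -0.42. Over all tested genes the median was -0.02, with 52.0% lower. The median of the 9 was -0.014 without cKO replicate 2 and 0.031 without both replicate 2 libraries. The 9 genes also differed in how much they varied at all. The root-mean-square deviation of log2(scaled CPM + 1) from the gene's own mean was 0.41 for Ifnar1 and Jak1, 0.42 for Stat2 and 0.44 for Tyk2. It was 0.70 for Ifngr1, 0.87 for Irf9, 0.92 for Irf7, 1.06 for Ifnar2 and 1.52 for Usp18.

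**Figure D3:**
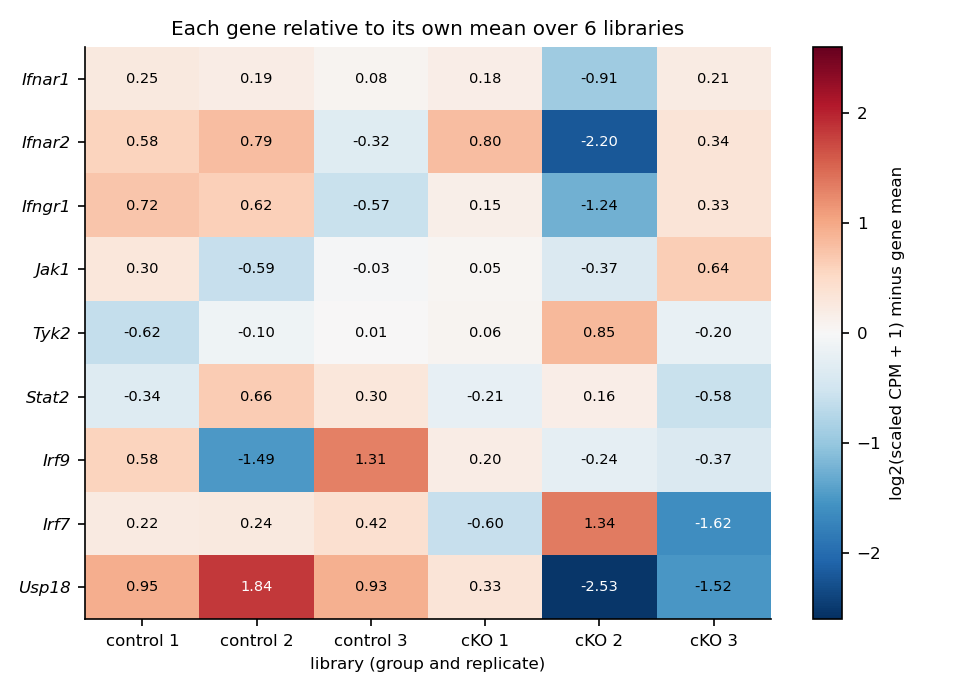
Log2(scaled CPM + 1) of each gene (rows) in each library (columns) minus the gene's mean over the 6 libraries; red is above and blue below that mean. In cKO replicate 2 Usp18 is at -2.53 and Ifnar2 at -2.20, while Irf7 is at 1.34 in the same library.

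Profiles were compared by the root-mean-square difference between centred log2 values over the 6 libraries, where a smaller value is a closer profile. All libraries are shared by these comparisons, and with 14796 genes to choose from a close match is a description only. The tested genes nearest to Usp18 outside the 9 were Nlrc5 (0.38), Ndp (0.43) and H2-Q4 (0.43), and each had 0 reads in cKO replicate 2. The median distance of all tested genes from Usp18 was 1.59. Nlrc5, a regulator of MHC class I genes, was at 11.98, 24.9 and 12.9 in libraries labelled control and at 11.8, 0 and 3.37 in those labelled cKO. Its highest library was control replicate 2, as for Usp18. Among the other 8 members the nearest to Usp18 was Ifnar2, at 1.05, so none was close.

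The nearest profiles of the other members lay at smaller distances. This distance grows with how much a gene varies, so it does not rank likeness between members. The median distance of all tested genes ran from 0.66 for Ifnar1 to 1.13 for Ifnar2, against 1.59 for Usp18. For Ifnar1 they were Edc3, Crk and Glcci1 (each at 0.07), for Ifnar2 Ttc23, Bmf and Mob4 (0.09 to 0.14), and for Ifngr1 Bst2, Dtymk and Chst15 (0.11 to 0.17). For Jak1 they were Skp1a, Tmem65 and Sumo2 (0.06 to 0.10), for Tyk2 Anks3, Dok6 and Parvb (0.09 to 0.11), and for Stat2 Zfyve21, Tet2 and Eps15l1 (0.07 to 0.10). For Irf9 they were Snrnp35, Wdhd1 and Sox4 (0.25 to 0.28), and for Irf7 Shroom4, Gm19461 and Triap1 (0.22 to 0.35). Within the 9, Ifnar1 and Ifngr1 were each other's nearest member (0.40), as were Tyk2 and Stat2 (0.49). Neither pair was close, since a flat profile lies at a gene's own root-mean-square deviation. That was 0.41 for Ifnar1, 0.44 for Tyk2 and 0.42 for Stat2. Tyk2 and Stat2 were thus farther from each other than from a flat profile. The nearest member to Irf7 was Stat2 (0.72), and to Irf9 it was Jak1 (0.79).

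Levels of different genes were compared as scaled CPM per kilobase of annotated exon, over the union of exons in GENCODE M21. That union can be longer than the mature transcript, so the order is approximate. Jak1 was highest, with a lowest, median and highest library of 16.7, 25.4 and 39.4, and it was above Ifnar1 in 6 of 6 libraries. Ifnar1 followed at 5.61, 12.2 and 12.8, Ifnar2 at 1.27, 9.73 and 12.4, and Stat2 at 6.35, 9.51 and 15.3. Ifnar1 was above Ifnar2 in 4 of 6 libraries and Ifnar2 above Stat2 in 3 of 6, so these neighbours did not differ beyond their spread. Ifngr1 was at 2.20, 6.81 and 9.62 and Tyk2 at 2.71, 4.12 and 7.75. The lowest medians were those of Usp18 (2.90), Irf9 (2.90) and Irf7 (2.44), whose ranges overlapped. By mean, the place of Usp18 differed by label. In libraries labelled control its mean was 4.75 ± 1.99, against 3.65 ± 0.829 for Tyk2 and 4.28 ± 3.29 for Irf9, and in those labelled cKO it was 0.866 ± 1.20 (SD, n = 3 each). The control mean of Usp18 was raised by replicate 2, at 7.04 against 3.63 and 3.56 in replicates 1 and 3. Usp18 was above Irf9 in 1 of 6 libraries.

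**Figure D4:**
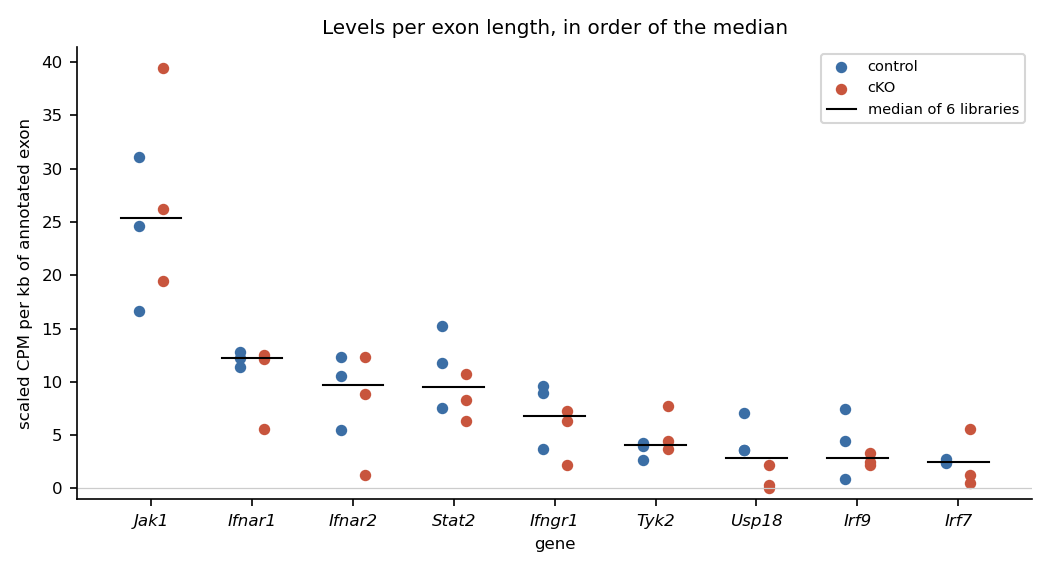
Scaled CPM per kilobase of annotated exon (vertical axis) for the 9 genes in order of their median; blue points are libraries labelled control, red points those labelled cKO, and the line is the median of 6 libraries. Jak1 lies at 16.7 to 39.4, above every Ifnar1 value in the same library, and Usp18, Irf9 and Irf7 have medians of 2.90, 2.90 and 2.44.

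Interferon genes, among them those of interferon lambda, which uses another receptor, were nearly undetected. Of 21 interferon genes in the table, 1 reached the floor of 3 reads in any library. That gene was Ifnk, which encodes interferon kappa, with 24 reads (2.21 scaled CPM) in control replicate 1, 74 reads (3.55) in cKO replicate 1 and 0 in the other 4. Ifnb1 and Ifng, the single genes of interferon beta and gamma, had 0 reads in all 6 libraries. A count of 0 allows up to 0.126 to 0.303 scaled CPM, and sorted cells need not be those that make the ligand.

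Other receptor chains, kinases and factors of the pathway gave 0 calls in either direction, like the 9. Ifngr2, the second chain of the gamma receptor, was at 23.2, 18.8 and 23.6 in libraries labelled control and 16.4, 22.02 and 44.0 in those labelled cKO, which overlapped. Unlike Ifngr1, it was not low in cKO replicate 2. Il10rb, a chain shared by interferon lambda and interleukin receptors, was at 4.38 ± 2.19 and 6.74 ± 1.94 (SD, n = 3 each). The remaining chain of the list, Ifnlr1, was too low to be tested.

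Of 8 other Janus kinase and STAT genes tested, 7 had a lower and 1 a higher fitted mean in libraries labelled cKO, with a median log2 difference of -0.56. Without cKO replicate 2 that median was -0.02. Stat4, at 1.01, 0.147 and 4.50 in libraries labelled control and 0.192, 0 and 1.85 in those labelled cKO, was near the floor in several. Stat5b, Stat6 and Stat4, which serve other cytokines, overlapped between the groups. They had log2 differences of -0.82 (SE 0.485), -0.88 (SE 0.99) and -0.63 (SE 0.80). These were -0.52, 0.37 and -0.34 without cKO replicate 2, so the direction of Stat6 turned with that library, where it was at 0.202 against 15.4 and 15.3 in the other libraries labelled cKO. Without that library 4 of the 8 genes of this list had a lower and 4 a higher fitted mean.

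The list of other interferon regulatory factors (IRFs) also holds genes of IRF2 partner proteins, which are not IRFs. All 8 tested genes of this list had a lower fitted mean in libraries labelled cKO, with a median of -0.45, and limma called 0 of them. Without 1 library at a time the median ran from -0.79 (without cKO replicate 1) to -0.46, and it was -0.78 without control replicate 1. Of the 8, 6 were lower and 2 higher without cKO replicate 2. Irf1, an interferon-induced factor that activates further interferon genes, was at 18.4, 25.2 and 15.7 in libraries labelled control and at 12.9, 5.15 and 11.2 in those labelled cKO. Its groups did not overlap (log2 difference -1.01, SE 0.53), while those of the other 7 did, against 2.26% of all tested genes with every library labelled cKO below every control. The difference in Irf1 was -0.65 without cKO replicate 2. Irf3, the factor activated by nucleic acid sensing, was at 21.2 ± 4.39 and 13.4 ± 2.94, and Irf2bp1, which encodes a partner protein of IRF2 and not an IRF, at 27.4 ± 10.7 and 14.2 ± 10.6 (SD, n = 3 each). Irf4 reached 36.4 in control replicate 3 and at most 2.06 in the other 5 libraries. Its log2 difference of -1.39 turned to 0.0445 without that library.

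The list of negative regulators other than Usp18, which also holds genes of the ISG15 modifier and its conjugation, showed no common direction. Of 19 tested, 11 were lower and 8 higher in libraries labelled cKO, with a median log2 difference of -0.08 and 0 calls. The median was 0.073 without cKO replicate 1. Socs1, which inhibits Janus kinases, was at 3.87, 4.85 and 10.1 in libraries labelled control and at 3.89, 0 and 4.17 in those labelled cKO, which overlapped. Herc6, the mouse ligase for ISG15, the modifier that USP18 removes, was at 24.4, 29.8 and 33.3 and at 19.6, 22.3 and 20.6, and its groups did not overlap. It was the 1 gene of the 19 with every library labelled cKO below every control, against 2.26% of all tested genes. The difference in Herc6 was small (log2 difference -0.46, SE 0.39). Ube2l6, the conjugating enzyme of the same pathway, had a log2 difference of -0.85 (SE 0.80) that rested on a 0 in cKO replicate 2 and was -0.10 without it. Pias4, a SUMO ligase gene, had one of 0.64 (SE 0.50), which was 0.35 without cKO replicate 2 and -0.0027 without both replicate 2 libraries. For Socs1 the log2 difference was -1.21, and -0.44 without cKO replicate 2.

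The known target genes of ISGF3 were listed as well. Of 31 tested, 28 had a lower and 3 a higher fitted mean in libraries labelled cKO, with a median log2 difference of -1.37, against -0.42 for the 9 genes and -0.02 for all tested genes. In 14 of the 31 every library labelled cKO lay below every control, and in 0 above, where the shares over all tested genes were 2.26% and 2.45%. The counts were also 14 and 0 of 31 without cKO replicate 2, and the shares over all tested genes 4.12% and 5.53%. Without both replicate 2 libraries the counts were 13 and 0 of 29 tested, and the shares 9.47% and 10.3%. Limma and edgeR called 0 of the 31, and DESeq2 on recovered reads called 1, Ifit3 (log2 difference -2.49, adjusted p = 0.0121). The 4 with the smallest unadjusted p were Ifit3, Ifit1, Ddx58 and Ifit3b, at log2 differences of -2.29, -1.67, -2.02 and -2.32. Ifit3 and Ifit3b are close paralogs, so the split of reads between them is uncertain. The differences were -2.29, -1.54, -1.24 and -1.46 without cKO replicate 2. For Ddx58, the RNA sensor gene, cKO replicate 1 was at 25.3 against 2.42 and 10.4 in replicates 2 and 3. That is the order of Usp18 in these 3 libraries. The median of the list was -0.90 without cKO replicate 2 and -0.67 without both replicate 2 libraries. The list was chosen with earlier results on these libraries known, so its direction is not independent evidence.

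Of 19 tested genes that interferon gamma induces, 15 were lower and 4 higher, with a median log2 difference of -1.01 and 0 calls. Irgm2, a GTPase gene, was at 11.2, 15.5 and 7.61 in libraries labelled control and 2.97, 0 and 2.99 in those labelled cKO. Cxcl10, a chemokine gene, was at 6.27, 2.94 and 4.78 and at 1.06, 0 and 1.47. Reads of Irgm2 are uncertain because the gene overlaps Igtp. In both genes the groups did not overlap, with every library labelled cKO the lower, as in 5 of the 19, against 2.26% of all tested genes. The 5 include Irf1, which the list shares with that of the other IRFs. The count was also 5 of 19 without cKO replicate 2, against 4.12%, and 9 of 19 without both replicate 2 libraries, against 9.47%. Every library labelled cKO lay above every control in 0 of 19 with all libraries and 0 of 19 without cKO replicate 2. The shares over all tested genes were 2.45% and 5.53%. Without both replicate 2 libraries it was 1 of 19, against 10.3%. Gbp7, a guanylate-binding protein gene, was at 45.9, 29.1 and 24.8 and at 27.6, 8.99 and 11.8, which overlapped. The median of the list was -0.46 without cKO replicate 2.

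**Figure D5:**
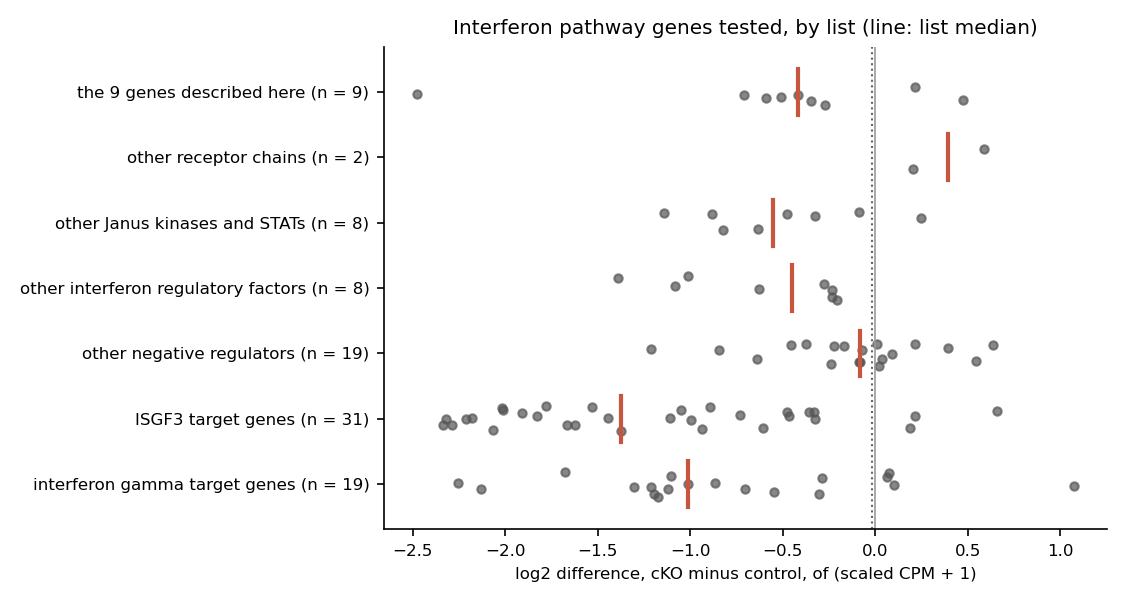
Log2 difference of (scaled CPM + 1), labelled cKO minus labelled control (horizontal axis), of each tested gene in 7 lists; red lines are list medians, the dotted line is the median of all tested genes, and vertical scatter within a list is for legibility. The list medians run from 0.39 for the other receptor chains to -1.37 for the ISGF3 target genes.

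Markers of cell types that could carry these transcripts were summed in each library. Microglial and macrophage markers (14 of 14 in the table) summed to 66.2 to 100 scaled CPM in libraries labelled control and 52.3 to 94.2 in those labelled cKO. In cKO replicate 2 Ptprc, Tmem119, C1qa, C1qc and Trem2 were at 0, while 5 other markers of the 14 were highest in that library: Aif1 (7.37), Itgam (7.07), Cx3cr1 (17.4), P2ry12 (8.89) and C1qb (10.8). In control replicate 2 Tmem119, C1qa, Tyrobp and Trem2 were at 0. Neutrophil markers (7 of 8 in the table) summed to 0 to 3.78 and 0.303 to 2.74, and T and B lymphocyte markers (7 of 7) to 1.20 to 2.33 and 0.968 to 2.21, with Cd3e and Ms4a1 at 0 in all 6 libraries. Neuron markers (13 of 13) summed to 2713 to 3769 and 1402 to 7095, below the oligodendrocyte markers (12 of 12) at 21572 to 27459 and 11111 to 33467, although O4-positive cells were sorted out. Mural and fibroblast markers (12 of 12) summed to 590 to 4973 and 296 to 2968, and Lum was at 0 in cKO replicate 2. Astrocyte markers (9 of 9) summed to 826 to 1217 and 1109 to 2217, highest in cKO replicate 2. Endothelial markers (10 of 10) summed to 71.6 to 163 and 108 to 161, and oligodendrocyte precursor markers (7 of 7) to 2220 to 2492 and 1707 to 2911. By fitted log2 difference, 11 of 12 oligodendrocyte markers were lower in libraries labelled cKO and 8 of 9 astrocyte markers higher. Of all tested genes 52.0% were lower, and the highest oligodendrocyte sum, 33467, was that of cKO replicate 1. The part of cell make-up in the Usp18 difference was not tested. In bulk libraries, fewer cells of a type and less RNA per cell cannot be told apart.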

How the data were processed

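The deposited table holds 24419 genes in 6 columns, matched to libraries by title. Per the submitters' processing notes, the authors used Trimmomatic, HISAT2, featureCounts and edgeR with the mm10 build. The sources used here give no version, strand setting or counting annotation. The values are a normalized signal deposited by the authors as CPM with a further scaling per library, since column totals ran from 961962 to 1027958. The design had assumed plain CPM, and its test fits either form. In each library 100% of values were within 0.001 of a whole multiple of 1 step, which gave whole reads.

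Limma 3.58.1 in R 4.3.3 fitted log2(value + 1) with a trended prior variance. The 14796 genes tested reached 1 scaled CPM in 3 or more libraries. Genes were called at a Benjamini-Hochberg adjusted p under 0.05. The log2(value + 1) scale understates changes of low genes. Alternatives were other pseudocounts, filters and scalings, a replicate block, leaving out each library, edgeR 4.0.16 and DESeq2 1.42.0 on recovered reads and, chosen after seeing the data, leaving out both replicate 2 libraries. The limma script was tested on simulated data. Poisson intervals and floors cover counting error only, since reads can be copies of fewer molecules. Positions and exon lengths are from GENCODE M21 and promoter windows from RefSeq.

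The members and lists were chosen with earlier results of these data known. Genes named are the 9 members, Padi4, up to 4 genes of each other list by smallest unadjusted p (all where 5 or fewer were tested), and the 3 nearest profiles of each member. Ifnk, Ifnb1, Ifng, Ifnlr1, and the overlapping and marker genes were named after their values were seen. Some genes that this rule or the marker lists would name are not reported here.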

Additional observations from a re-analysis of the deposited data

How the results depend on the processing

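No alternative brought any of the 9 genes past the adjusted threshold, with limma, edgeR or DESeq2. The replicate block and both changes of filter leave each log2 difference fixed by construction. Over the other 13 alternatives, 108 of 117 gene values kept their sign, those of Stat2, Tyk2 and Usp18 in all 13, and 9 turned. For Usp18, whose groups did not overlap, neither leaving out libraries nor changing the pseudocount could turn the sign. Without cKO replicate 2, Ifnar1 turned to 0.022 and Ifnar2 to 0.22. Without cKO replicate 3, Irf7 turned to 0.076 and Jak1 to -0.052. Jak1 also turned without control replicate 2 (-0.0263), and Irf9 without control replicate 3 (0.32). With 1 library left out at a time, the log2 difference ran from -0.54 to 0.022 for Ifnar1, -1.29 to 0.22 for Ifnar2, -1.41 to 0.076 for Irf7, -1.08 to 0.32 for Irf9 and -0.052 to 0.46 for Jak1. Without both replicate 2 libraries, Ifnar1 turned to 0.031, Ifnar2 to 0.44 and Ifngr1 to 0.17. The median over the 9 genes, -0.42 with all libraries, ran from -0.44 to -0.014 without 1 library, the latter without cKO replicate 2, and was 0.031 without both replicate 2 libraries. The cause was not tested. The count of genes called among all tested was 0 in every limma fit and in edgeR (41 higher and 32 lower at an unadjusted p under 0.05), and 1 with DESeq2 on recovered reads, Ifit3 (log2 difference -2.49, adjusted p = 0.0121). In the limma fit with all libraries 50 genes were higher and 76 lower at an unadjusted p under 0.05.

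Usp18 ran from -3.83 to -1.35 over the alternatives, with adjusted p from 0.732 to 1. Its unadjusted p was 0.0977 with edgeR and 0.0419 with DESeq2. The replicate block left each log2 difference as it was and called 0 genes, with 110 higher and 197 lower at an unadjusted p under 0.05. Deviations of same-numbered libraries correlated at 0.491, 0.301 and 0.034, and those of differently numbered libraries at -0.403 to 0.028. Whether the numbers mark paired libraries was not tested. At the depth of cKO replicate 2, the exact Poisson 95% upper limit for Usp18 was 0.373 scaled CPM.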
